A study of Mus musculus with 12 samples.

Results

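The insulin-like growth factor (IGF) system was followed in whole retinas of mice with oxygen-induced retinopathy (OIR), a model of retinopathy of prematurity. The members were taken by name as the 10 genes of the core system present in the count table: the ligands Igf1 and Igf2, the receptors Igf1r and Igf2r, and the binding proteins Igfbp2, Igfbp3, Igfbp4, Igfbp5, Igfbp6 and Igfbp7. They are 10 of the 36131 genes in the table, and all 10 were among the 16688 genes with enough counts to be tested. Each library came from 1 mouse, and 4 mice stood in each of 3 groups, all wildtype C57BL/6J and all aged P18. RA-PBS mice (animals 1 to 4) were kept in room air and given PBS as placebo. O2-PBS mice (animals 5 to 8) breathed 75% oxygen from P7 until their return to room air at P12 and were given PBS. O2-IC100 mice (animals 9 to 12) had the same oxygen and received IC100, which is a monoclonal antibody directed at ASC, an adaptor protein of inflammasomes. The labels give an intraperitoneal dose of 10 µg/g on P12, P14 and P16. The study's methods also describe mice injected into the eye and do not say which route the sequenced mice had, so that the route, and whether placebo was given by the same one, is not certain. Per the labels, dams did not stay in oxygen throughout. Litters are not given in the sources used here, and IC100 was not sequenced in room air.

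IGF1 and IGF2 are secreted peptides that act on the receptor tyrosine kinase IGF1R, which signals through IRS adaptors to PI3K, AKT and mTOR. IGF2R binds IGF2 and carries it to the lysosome without a kinase signal. The binding proteins hold IGFs in the extracellular space and are cut by proteases to set them free, and several of them also act on cells without IGF. In premature infants low circulating IGF1 is tied to poor growth of retinal vessels, and in the mouse model hyperoxia first removes central capillaries and the hypoxic retina later forms tufts of new vessels.

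One library stood apart before any comparison was made. In O2-IC100 animal 10, crystallin transcripts took 54.4% of all counts and the 7 rod markers 0.313%, against 3.62 to 4.49% for rods in the other 11 libraries. This animal was therefore left out of the tests given first, and its values are given beside those of the others. Lens transcripts also took 1.16 to 4.20% of counts in RA-PBS animals 2, 3 and 4, but 0.000626% in RA-PBS animal 1 and at most 0.0116% in the 7 other oxygen-exposed libraries. Library totals ran from 14907143 to 24438082 estimated counts. Summed RNA of 4 Y-linked genes was at 246 to 362 CPM (counts scaled to library size with TMM normalization) in RA-PBS animals 1, 2 and 3, O2-PBS animal 8 and O2-IC100 animals 9, 11 and 12, and at 4.48 to 10.9 CPM in the other 5 animals, so that sex and group were not balanced.

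Between O2-PBS and RA-PBS retinas, 4 of the 6 binding proteins passed the test, while no ligand or receptor did. All retinas were from mice aged P18, after the O2-PBS mice had returned to room air at P12. These groups also differed in lens transcripts and were not balanced in Y-linked RNA. Igfbp3, Igfbp5 and Igfbp7 rose in O2-PBS retinas over RA-PBS retinas, by 3.31-fold, 1.75-fold and 2.23-fold, and Igfbp6 fell to 0.415 of its room-air level. Past the thresholds (a fold change of at least 1.5, p under 0.05 and a Benjamini-Hochberg adjusted p under 0.1 in edgeR's quasi-likelihood test) were 3 of 10 members on the higher side and 1 of 10 on the lower side. Over all genes tested, 4.09% passed as higher and 2.18% as lower. The 4 members that passed were also the 4 whose O2-PBS and RA-PBS animals did not overlap, where 14.3% of all genes tested had such groups. For O2-IC100 against O2-PBS, 1 member, Igfbp3, passed, as lower, where 0.731% of all genes tested passed as lower and 0.216% as higher. This call was lost when some single animals were left out, or with Y-linked RNA as a covariate. With animal 10 in the fit, no member passed in any of the 3 comparisons in edgeR. In bulk retina, more cells of a type and more RNA per cell cannot be told apart.

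The sequences upstream of the 3 genes that were higher in O2-PBS than in RA-PBS retinas are shown first. The letters searched are the core of the hypoxia response element, which hypoxia-inducible factors bind. Each line holds the 250 bases before the annotated start of the gene, 5′ to 3′ on the gene's own strand, from RefSeq on GRCm38.p6. All 3 genes lie on the minus strand, Igfbp3 at chr11:7213924-7214173, Igfbp7 at chr5:77408046-77408295 and Igfbp5 at chr1:72874866-72875115. Capitals mark the core with the letters ACGTG, and likewise the form that has the letters GCGTG, each searched on both strands of the window. A copy of the latter on the opposite strand is read in reverse complement. Copies on opposite strands can share letters.
Igfbp3: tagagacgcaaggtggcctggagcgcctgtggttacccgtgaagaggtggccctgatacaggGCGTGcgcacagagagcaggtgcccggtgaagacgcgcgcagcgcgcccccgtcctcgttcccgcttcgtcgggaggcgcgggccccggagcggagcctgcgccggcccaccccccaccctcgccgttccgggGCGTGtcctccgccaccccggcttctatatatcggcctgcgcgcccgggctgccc
Igfbp7: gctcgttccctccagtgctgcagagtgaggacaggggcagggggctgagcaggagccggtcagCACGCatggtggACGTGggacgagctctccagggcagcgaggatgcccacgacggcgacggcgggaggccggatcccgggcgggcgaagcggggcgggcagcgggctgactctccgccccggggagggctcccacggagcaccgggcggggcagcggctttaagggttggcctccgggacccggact
Igfbp5: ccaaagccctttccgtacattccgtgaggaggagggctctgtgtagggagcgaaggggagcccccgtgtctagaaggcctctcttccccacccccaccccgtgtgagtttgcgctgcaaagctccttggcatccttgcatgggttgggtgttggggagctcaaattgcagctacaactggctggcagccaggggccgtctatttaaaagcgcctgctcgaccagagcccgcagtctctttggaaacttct
Igfbp3 held 2 copies of the GCGTG form, Igfbp7 held 1 copy of each form, and Igfbp5 held none. Over all 32851 upstream windows of this length in the RefSeq table, 38.6% held at least 1 copy of either form. The 10 members have 14 such windows, and 7 of the 14 held a copy. The window of Igfbp6, which fell, held none. The highest numbers were in members that did not pass, with 6 copies in Igf2r, 4 in a window of Igfbp2 and 3 in Igf1r. Igf1 and a window of Igf2 held 1 each, and Igfbp4 held none. The counts describe the letters in these windows and say nothing of whether a factor was bound there.

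**Figure D1:**
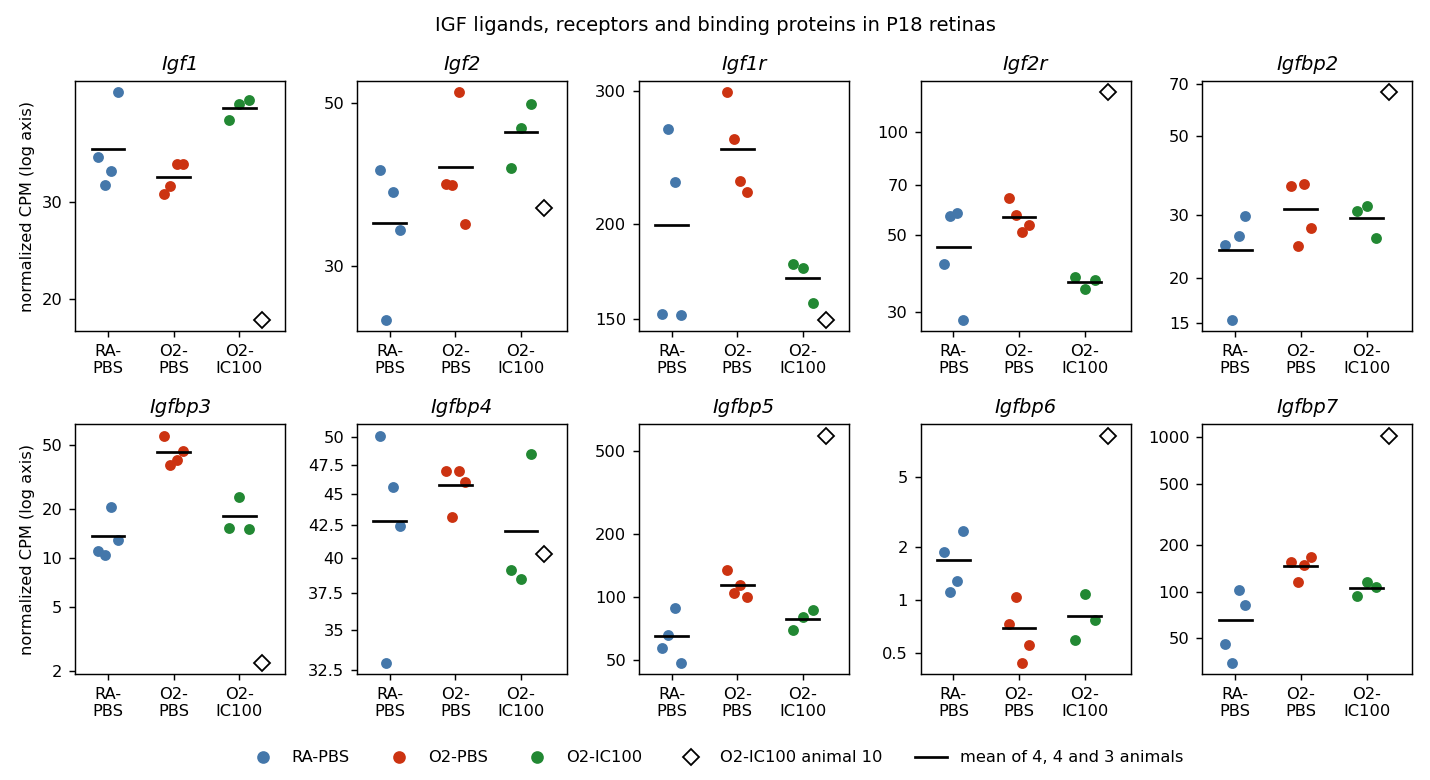
Normalized CPM (log axis, a separate scale in each panel) of the 10 members in each animal, with filled points for 11 animals, a black line at the mean of 4 RA-PBS, 4 O2-PBS and 3 O2-IC100 animals, and an open diamond for O2-IC100 animal 10. Igfbp3 lay between 37.9 and 57.2 CPM in the O2-PBS animals and at or below 23.9 CPM in every other animal, while animal 10 lay far from its group for several members.

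Igf1, the ligand whose serum level follows growth hormone, was 36.3, 32.2, 34.1 and 47.5 CPM in RA-PBS animals 1 to 4 and 31.1, 32.1, 35.1 and 35.2 CPM in O2-PBS animals 5 to 8. It was 42.4, 45.2 and 46.0 CPM in O2-IC100 animals 9, 11 and 12. The room-air and O2-PBS animals overlapped, and the IC100 animals all lay above the O2-PBS animals but not above RA-PBS animal 4. The log2 fold change was -0.17 (SE 0.11) for O2-PBS against RA-PBS and 0.42 (SE 0.12, adjusted p = 0.138) for O2-IC100 against O2-PBS, and neither passed in edgeR's quasi-likelihood test. In animal 10 Igf1 was 18.3 CPM. Microglia, a known source of Igf1, had 10 markers, all found in every library, that summed to 58.8 to 106 CPM in RA-PBS, 107 to 136 in O2-PBS and 121 to 152 in O2-IC100 animals and to 532 CPM in animal 10. Their part in the level of Igf1 was not tested.

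Igf2, the fetal ligand that mesenchyme, choroid plexus and other tissues express after birth, was 40.6, 25.4, 37.9 and 33.6 CPM in RA-PBS retinas. It was 38.8, 38.7, 51.6 and 34.3 CPM in O2-PBS retinas and 40.8, 46.1 and 49.7 CPM in O2-IC100 retinas. The 3 IC100 animals lay above all 4 room-air animals, by a narrow margin over RA-PBS animal 1, and overlapped with the O2-PBS animals. The log2 fold change of O2-IC100 over RA-PBS was 0.41 (SE 0.16, adjusted p = 0.236, edgeR), which did not pass. Animal 10 had 35.9 CPM, and with it this value was 0.32 (SE 0.18). Igf2 has an antisense neighbour, Igf2os, and the use of strand in counting is not given in the sources used here.

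Igf1r, the signalling receptor, was 152, 267, 227 and 152 CPM in RA-PBS retinas and 298, 259, 228 and 221 CPM in O2-PBS retinas. It was 177, 175 and 158 CPM in O2-IC100 retinas. The RA-PBS animals fell into a high and a low pair that enclosed the whole IC100 group, and all 3 IC100 animals lay below all 4 O2-PBS animals. The log2 fold change was 0.33 (SE 0.17, adjusted p = 0.272) for O2-PBS against RA-PBS and -0.57 (SE 0.18, adjusted p = 0.165) for O2-IC100 against O2-PBS, and neither passed in edgeR's test. Animal 10 had 149.8 CPM, and with it the second value was -0.62 (SE 0.20, adjusted p = 0.287).

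Igf2r, the scavenging receptor, was 41.4, 56.9, 58.2 and 28.4 CPM in RA-PBS retinas, 64.4, 57.5, 51.3 and 53.7 CPM in O2-PBS retinas, and 37.8, 35.0 and 37.2 CPM in O2-IC100 retinas. The IC100 animals lay below all O2-PBS animals and between the room-air animals. On the log2 scale, the fold change of O2-IC100 over O2-PBS was -0.63 (SE 0.19, adjusted p = 0.152, edgeR), which did not pass. It turned to 0.07 with animal 10, where Igf2r was 130.2 CPM. That level came from 931 counts in a total of 24438082 and rests on a low TMM factor of 0.293. DESeq2 on the 11 animals did call Igf2r lower in this comparison (adjusted p = 0.0417). Airn, an antisense transcript, starts within Igf2r, with the same limit on strand as for Igf2.

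Both receptor genes have long transcripts, 11409 bases for Igf1r and 8887 bases for Igf2r at the longest, and both moved with the balance of long and short transcripts in the library. That balance was taken as the median deviation of 996 genes with transcripts of at least 8000 bases minus that of 3578 genes with transcripts of at most 2000 bases, each from the gene's mean log2 CPM over 11 animals. It was -0.24, 0.44, 0.27 and -0.39 in RA-PBS animals 1 to 4, between 0.02 and 0.30 in O2-PBS animals, and between -0.23 and -0.21 in O2-IC100 animals. The room-air animals with high receptor levels, 2 and 3, were those with the positive balance. With each library corrected for transcript length and GC content, a step chosen after seeing the data, the log2 fold change of O2-IC100 over O2-PBS was -0.26 (SE 0.10) for Igf1r and -0.35 (SE 0.12) for Igf2r. The source of the difference in balance was not tested.

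**Figure D2:**
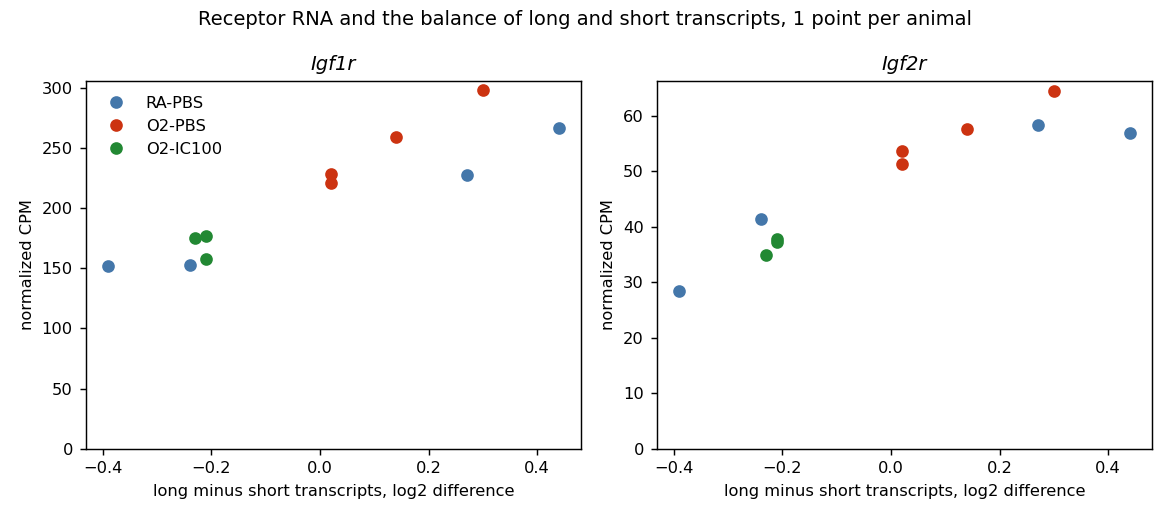
Normalized CPM of Igf1r (left) and Igf2r (right) against the log2 difference between long and short transcripts in the same library, 1 point per animal for 11 animals, coloured by group. The 3 O2-IC100 animals and RA-PBS animals 1 and 4 lie together at the low end of both axes, O2-PBS animals 7 and 8 lie near 0 on the horizontal axis, and O2-PBS animals 5 and 6 with RA-PBS animals 2 and 3 lie to their right.

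Igfbp3 is the main carrier of IGFs in serum and a gene of endothelial and other cells in tissue. Of the 10 members it showed the largest change between O2-PBS and RA-PBS retinas. It was 11.1, 10.4, 20.6 and 12.9 CPM in RA-PBS animals 1 to 4 and 57.2, 37.9, 40.6 and 45.8 CPM in O2-PBS animals 5 to 8. Every O2-PBS animal lay above every room-air animal, with a log2 fold change of 1.73 (SE 0.22, adjusted p = 0.000499, edgeR).

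In O2-IC100 animals 9, 11 and 12 Igfbp3 was 15.3, 23.9 and 15.2 CPM. All 3 lay below the lowest O2-PBS animal, and they overlapped with the room-air animals. This gave a log2 fold change of -1.32 (SE 0.24, adjusted p = 0.0381, edgeR) against O2-PBS and 0.40 (SE 0.24, adjusted p = 0.444) against RA-PBS. Both comparisons with O2-PBS rest on the same 4 O2-PBS animals, so the rise and the fall are not independent. The fall no longer passed when O2-PBS animal 5 (adjusted p = 0.122) or O2-IC100 animal 9 (0.215), 11 (0.125) or 12 (0.222) was left out of the edgeR fit, with log2 fold changes between -1.57 and -1.20. With Y-linked RNA as a covariate it was -1.36 (adjusted p = 0.109). O2-PBS animal 8, the 1 animal of its group with high Y-linked RNA, had 45.8 CPM of Igfbp3. Its Y-linked RNA was 254 CPM, below the 315 to 362 CPM of O2-IC100 animals 9, 11 and 12. Animal 10 had 2.24 CPM of Igfbp3, from 16 counts, and with it the log2 fold change was -1.68 (adjusted p = 0.287).

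Igfbp5, a binding protein of extracellular matrix that vessel wall cells express, was 56.9, 65.5, 88.3 and 48.2 CPM in RA-PBS retinas and 135, 105, 115 and 99.7 CPM in O2-PBS retinas. It was 69.1, 80.3 and 86.9 CPM in O2-IC100 retinas. All O2-PBS animals were above all animals of both other groups, and those other groups overlapped. Igfbp5 had a log2 fold change of 0.81 (SE 0.16, adjusted p = 0.00784) for O2-PBS over RA-PBS, which passed in edgeR's test. For O2-IC100 against O2-PBS it was -0.53 (SE 0.17, adjusted p = 0.168), which did not. Animal 10 had 592 CPM and turned the second value to 0.86.

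Igfbp7, also named angiomodulin, is a protein of the vascular basement membrane that binds IGF weakly. It was 45.6, 34.5, 102 and 81.9 CPM in RA-PBS retinas and 156, 115, 149 and 168 CPM in O2-PBS retinas. It was 93.5, 116 and 106 CPM in O2-IC100 retinas. The room-air animals spread widely, with animals 3 and 4 high, and still lay below every O2-PBS animal, while IC100 animal 11 lay just above O2-PBS animal 6. Igfbp7 had a log2 fold change of 1.16 (SE 0.29, adjusted p = 0.0337) for O2-PBS over RA-PBS in edgeR's test. It was -0.48 (SE 0.31, adjusted p = 0.397) for O2-IC100 against O2-PBS and 0.68 (SE 0.31, adjusted p = 0.323) for O2-IC100 against RA-PBS. Animal 10 had 1023 CPM, and with it the value against O2-PBS turned to 1.18. The 7 fibroblast and stroma markers summed to 28.1, 34.0, 105 and 56.1 CPM in RA-PBS animals 1 to 4, so that animals 3 and 4 were high in these as well. The same list summed to 68.3 to 98.8 CPM in O2-PBS, 47.2 to 61.9 in O2-IC100 animals and 793 CPM in animal 10, with 6 of the 7 above 0 in every O2-PBS library, and its part in the level of Igfbp7 was not tested.

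Igfbp6, which prefers IGF2 to IGF1, was the member of lowest level. It alone of the 10 passed as lower for O2-PBS against RA-PBS. Its counts were 30, 21, 21 and 42 in RA-PBS animals and 11, 18, 7 and 9 in O2-PBS animals, or 1.88, 1.11, 1.28 and 2.45 CPM against 0.729, 1.04, 0.438 and 0.551 CPM. The groups did not overlap, though RA-PBS animal 2 and O2-PBS animal 6 lay close together. The log2 fold change was -1.27 (SE 0.39, adjusted p = 0.0644, edgeR). The call was lost when RA-PBS animal 4 (adjusted p = 0.146) or O2-PBS animal 5 (0.132), 7 (0.179) or 8 (0.165) was left out of the edgeR fit. O2-IC100 animals had 0.593, 1.07 and 0.766 CPM, all below the room-air animals, with a log2 fold change against RA-PBS of -1.04 (SE 0.42, adjusted p = 0.250). Animal 10 had 8.53 CPM. Pigment epithelium RNA, summed over 7 markers and all 7 found in every library, was 40.1 to 139 CPM in RA-PBS, 24.6 to 52.4 CPM in O2-PBS, 63.0 to 73.8 CPM in O2-IC100 animals and 3984 CPM in animal 10. Its part in the level of Igfbp6 was not tested.

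Igfbp2, a binding protein of neural tissue and glia, was 24.8, 15.3, 26.2 and 29.9 CPM in RA-PBS, 36.3, 24.6, 36.8 and 27.7 CPM in O2-PBS and 31.0, 31.8 and 25.9 CPM in O2-IC100 retinas. Igfbp4, a binding protein that the protease PAPP-A cuts, was 50.1, 32.9, 45.6 and 42.4 CPM in RA-PBS, 47.0, 43.1, 47.0 and 46.0 CPM in O2-PBS and 39.1, 38.5 and 48.4 CPM in O2-IC100 retinas. The 3 groups overlapped for both genes. Log2 fold changes for O2-PBS over RA-PBS were 0.38 (SE 0.19) for Igfbp2 and 0.10 (SE 0.12) for Igfbp4, and neither passed. Animal 10 had 66.3 CPM of Igfbp2 and 40.3 CPM of Igfbp4, and with it O2-IC100 against O2-PBS was 0.29 (SE 0.30) and -0.15 (SE 0.13).

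**Figure D3:**
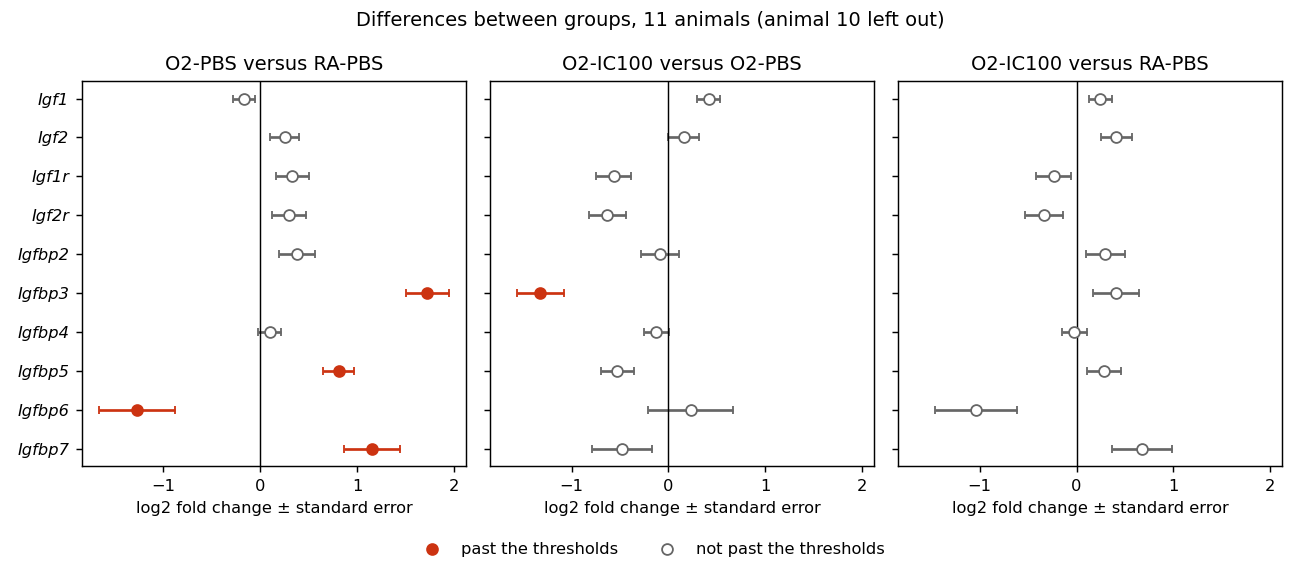
Log2 fold change with its standard error for each member in the 3 comparisons, from the fit of 11 animals, with filled red points for members past the thresholds and open grey points for the others. Igfbp3, Igfbp5 and Igfbp7 are filled on the right and Igfbp6 on the left for O2-PBS against RA-PBS, Igfbp3 alone is filled for O2-IC100 against O2-PBS, and none is filled for O2-IC100 against RA-PBS.

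Read over all 10 members, O2-IC100 against O2-PBS gave 1 call, on the lower side, where 0.731% of all genes tested passed as lower and 0.216% as higher. In this comparison 5 of 10 members had groups that did not overlap (Igf1 higher, and Igf1r, Igf2r, Igfbp3 and Igfbp5 lower), but so did 35.4% of all genes tested. The median log2 fold change was -0.30 over the members and 0.00 over all genes tested. For O2-PBS against RA-PBS the corresponding medians were 0.31 and -0.01. For O2-IC100 against RA-PBS, 0 of 10 members passed in edgeR's quasi-likelihood test, and DESeq2 and limma also called 0. In edgeR 2 of the 10 (Igf2 and Igfbp6) had an unadjusted p under 0.05, as did 2595 of 16688 genes tested. Over all genes tested in that comparison, 0.947% passed as higher and 0.617% as lower. Groups did not overlap for 2 of 10 members, the same Igf2 and Igfbp6, and for 10.8% of all genes tested. With all 12 animals in edgeR's fit, 0.807% of 16489 genes passed for O2-PBS against RA-PBS and 0% in each of the comparisons with O2-IC100. Of the 10 members, 1, 3 and 3 then had an unadjusted p under 0.05 in these 3 comparisons. Over all 16489 genes tested, 1174, 2784 and 2183 had one. DESeq2 on all 12 animals called 1, 1 and 0 members, and its calls over all genes are not given here.

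Compared with each other per kilobase of the longest annotated transcript, the members spanned a wide range in room air. Igfbp7 led at 54.9 ± 26.1 CPM per kilobase (SD, n = 4). Igfbp2 (18.4 ± 4.75) and Igf1r (17.5 ± 5.00) followed and did not differ beyond their spread, nor did Igfbp4 (11.2 ± 1.90) and Igfbp5 (10.8 ± 2.86). Igf2 was at 7.27 ± 1.41, Igfbp3 at 5.67 ± 1.94, Igf1 at 5.32 ± 0.97 and Igf2r at 5.20 ± 1.59, all within their spread of a neighbour, and Igfbp6 was last at 1.51 ± 0.55. In O2-PBS retinas Igfbp3 stood at 18.7 ± 3.54 CPM per kilobase, beside Igfbp5 at 18.9 ± 2.60 and Igf1r at 22.0 ± 3.09. The order rests on the transcript that is taken, since with the mean length of annotated transcripts Igf1r was at 59.5 and Igfbp7 at 56.9 CPM per kilobase in room air.

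Summed over the 6 binding proteins, RNA per kilobase was 102 ± 33.6 CPM per kilobase in RA-PBS (n = 4), 197 ± 25.1 in O2-PBS (n = 4) and 143 ± 12.5 in O2-IC100 (n = 3) retinas, with SD. The O2-PBS range of 160.3 to 216 lay above both the RA-PBS range of 65.2 to 141 and the O2-IC100 range of 130.2 to 155. Animal 10 summed to 1021 CPM per kilobase, above every O2-PBS animal, and with it the O2-IC100 mean was 362 ± 439 (n = 4). Igfbp7 supplied 51.6 ± 8.62% of the sum in room air, 62.2 ± 3.29% in O2-PBS and 61.4 ± 1.37% in O2-IC100 retinas, and 83.5% in animal 10. Igfbp3 supplied 5.61 ± 0.886%, 9.52 ± 1.09% and 5.21 ± 1.03% in the same order. Igfbp6 never exceeded 1.97% in any of the 11 animals. These sums and shares rest on the longest annotated transcript of each gene. With the mean length, room-air Igfbp4 was at 36.2 rather than 11.2 CPM per kilobase, and Igfbp7 at 56.9 rather than 54.9.

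**Figure D4:**
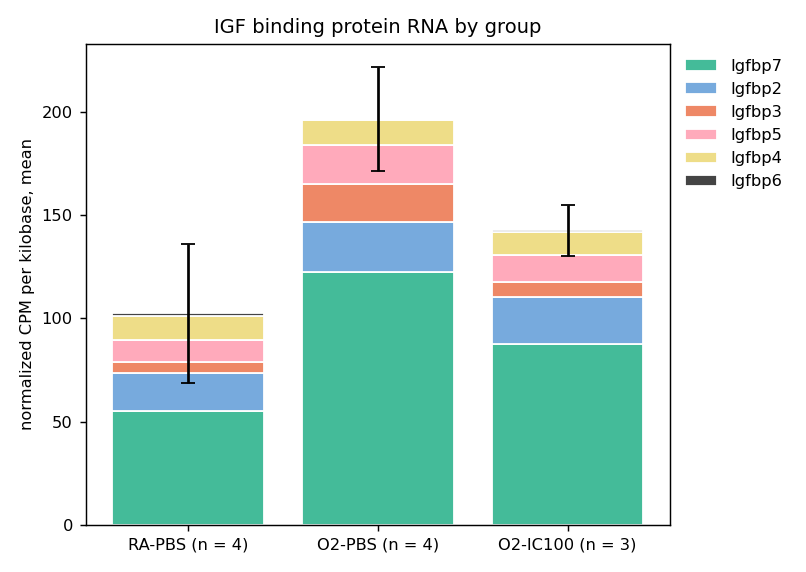
Mean normalized CPM per kilobase of the 6 binding proteins stacked by group, with a bar of 1 SD on the sum, for 4 RA-PBS, 4 O2-PBS and 3 O2-IC100 animals. The sum was 102 in RA-PBS, 197 in O2-PBS and 143 in O2-IC100, and Igfbp7 formed the largest block in each group. Animal 10, at 1021, is left out, and lengths are those of the longest transcripts.

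The count of one member against another in the same library needs no scaling for library size. It still carries the balance of long and short transcripts, which differed between libraries. The longest transcripts have 2421 bases for Igfbp3, 6006 for Igfbp5, 7052 for Igf1 and 11409 for Igf1r. The log2 ratio of Igfbp3 to Igf1 counts ran from -1.88 to -0.73 in RA-PBS, from 0.21 to 0.88 in O2-PBS and from -1.60 to -0.92 in O2-IC100 animals. Igfbp3 counts thus exceeded Igf1 counts in all 4 O2-PBS animals and in none of the other 7. Against Igfbp5, which also rose, the log2 ratio of Igfbp3 was -2.66 to -1.90 in RA-PBS, -1.50 to -1.12 in O2-PBS and -2.52 to -1.75 in O2-IC100 animals. The O2-PBS animals stood apart in this ratio as well. The log2 ratio of Igf1 to Igf1r was -3.05 to -1.68 in RA-PBS, -3.26 to -2.65 in O2-PBS and -2.06 to -1.78 in O2-IC100 animals, with the IC100 range inside the room-air range.

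Markers of vessel cells were, like the 3 binding proteins that rose, higher in O2-PBS than in RA-PBS animals. The 10 endothelial markers, all above 0 in every library, summed to 257 to 374 CPM in RA-PBS, 507 to 569 in O2-PBS and 373 to 418 in O2-IC100 animals. The 6 tip cell and tuft markers, which label growing vessels, summed to 11.5 to 23.8, 87.8 to 189 and 49.2 to 69.1 CPM, with 4 of the 6 above 0 in every RA-PBS library. The 8 pericyte and mural markers, found in every library, summed to 186 to 220.1, 387 to 559 and 340 to 409 CPM. Among these 11 animals the O2-PBS animals lay above all others for the first pair of lists and overlapped with the O2-IC100 animals for the pericyte list. O2-IC100 animals lay above all RA-PBS animals in the sums of the tip cell and pericyte lists. The pericyte sum does not stand for each of its markers, as their median log2 fold change in this comparison was -0.03. O2-IC100 and RA-PBS animals overlapped for the endothelial list and for Igfbp3, Igfbp5 and Igfbp7. Animal 10 had 55.2, 27.8 and 784 CPM for the 3 lists in the order given. The 8 reactive Müller glia markers summed to 254 to 699, 658 to 1042 and 360 to 463 CPM. The part of vessel cell numbers in the rise of Igfbp3, Igfbp5 and Igfbp7 was not tested.

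**Figure D5:**
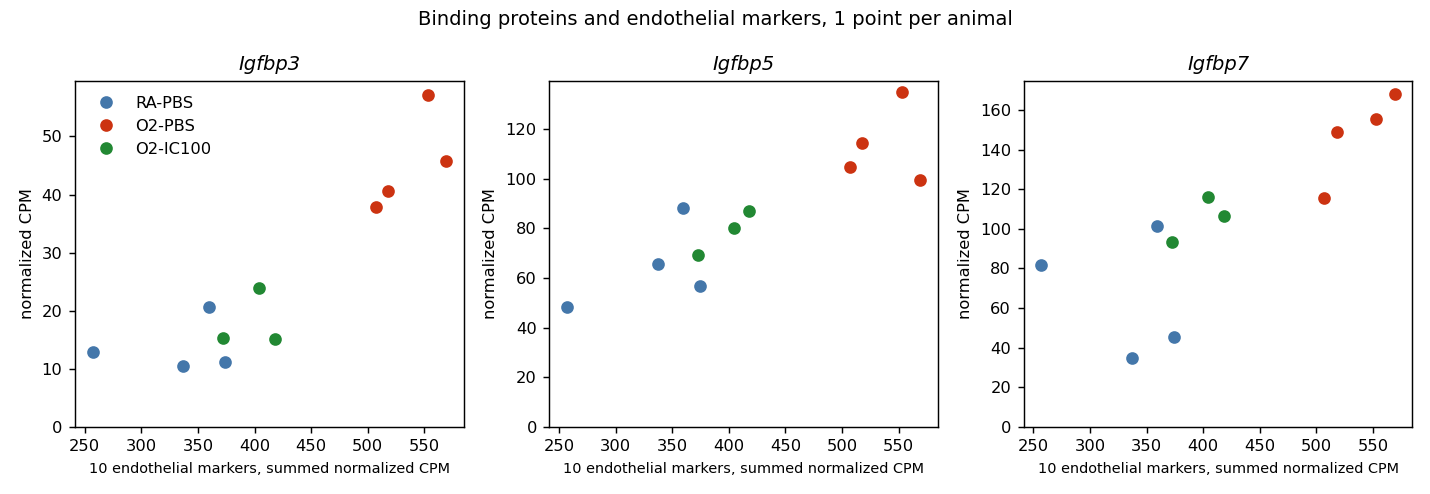
Normalized CPM of Igfbp3, Igfbp5 and Igfbp7 against the summed CPM of 10 endothelial markers, 1 point per animal for 11 animals, coloured by group. The 4 O2-PBS animals lie at the right, between 507 and 569 on the marker axis, and hold the highest values of Igfbp3 and Igfbp5.

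The genes whose log2 CPM was most like that of each called member over the 11 animals were read off as a description, from 15240 genes with a mean of at least 1 CPM. For Igfbp3 they were Uaca (Pearson r = 0.974), the integrin subunit gene Itgb3 (0.972) and Ehd2 (0.972), a gene of caveolae. For Igfbp5 they were the endothelial genes Nos3 (0.976), Stab1 (0.968) and Vwf (0.962). For Igfbp7 they were Serpinh1 (0.976), a collagen chaperone, Cmtm3 (0.970) and Ifitm2 (0.964). For Igfbp6, which had only 7 to 42 counts in these animals, they were Fam107a (0.946), Fn3k (0.933) and Taf1a (0.930). With animal 10 included, the first 3 for Igfbp6 were instead Trim37, Arhgef10 and Sec14l5. The points share their libraries and the 3 groups, and with animal 10 included r with Igfbp3 dropped to 0.539 for Uaca and r of Igfbp5 with Nos3 turned to -0.726.

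Around the members, 62 further genes of the pathway were in the table and 59 could be tested, since Ins1, Ins2 and Igfals had too few counts. H19, the imprinted neighbour of Igf2, was not analysed here. For O2-PBS against RA-PBS, 6 of 59 passed as higher and 0 as lower in edgeR's test, with a median log2 fold change of 0.04. Over all genes tested, 4.09% passed as higher and 2.18% as lower. Of 9 proteases that cut binding proteins, 3 rose: Mmp14, a membrane-bound matrix metalloproteinase, Plau, the urokinase plasminogen activator, and Adam12, a disintegrin protease known to cleave IGFBP3 and IGFBP5. Mmp14 was 16.8 ± 2.03 CPM in RA-PBS, 28.8 ± 1.23 in O2-PBS (n = 4 each) and 26.1 ± 0.893 in O2-IC100 (n = 3) retinas, with SD. Its log2 fold change for O2-PBS over RA-PBS was 0.78 (SE 0.10, adjusted p = 0.000402, edgeR). Plau rose by 1.63 (SE 0.34) from the low level of 0.574 CPM, and Adam12 by 0.72 (SE 0.19), on the log2 scale. Stc2, a secreted inhibitor of PAPP-A, rose from 4.96 ± 1.97 to 13.5 ± 2.37 CPM (log2 fold change 1.44, SE 0.22, adjusted p = 0.00194). Inside the cell, Inpp5d, a lipid phosphatase of blood-derived cells, rose by 0.81 (SE 0.18), and Eif4ebp1, the translation repressor that mTOR phosphorylates, by 0.63 (SE 0.13).

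With IC100, 1 of the 59 pathway genes passed against O2-PBS, as lower, where 0.731% of all genes tested passed as lower and 0.216% as higher. Adam12 fell from 10.2 ± 2.25 CPM in O2-PBS to 5.62 ± 0.748 CPM in O2-IC100 retinas (SD, n = 4 and 3), with a log2 fold change of -0.86 (SE 0.21, adjusted p = 0.0991, edgeR). It lost the call when any O2-PBS or O2-IC100 animal was left out of the fit, which then held 0 calls in the pathway. Plau had a larger difference, -1.30 (SE 0.36, adjusted p = 0.125), that did not pass. Against RA-PBS, 2 of 59 passed as higher and 1 as lower, beside 0.947% and 0.617% of all genes tested. O2-IC100 retinas were higher in Mmp14 (0.64, SE 0.10, adjusted p = 0.0192) and Stc2 (1.05, SE 0.24, adjusted p = 0.0638). They were lower in Pappa, the gene of PAPP-A (-0.90, SE 0.23, adjusted p = 0.0857), which was 6.73 ± 1.70 CPM in RA-PBS, 4.60 ± 0.202 in O2-PBS and 3.60 ± 0.884 in O2-IC100 retinas. The calls of Mmp14 and Stc2 in both comparisons with RA-PBS rest on the same 4 room-air animals. With all 12 animals in the fit, 0 pathway genes passed in the 3 comparisons with edgeR, and DESeq2 called 3, 0 and 1. In edgeR 7, 10 and 9 of the 59 had an unadjusted p under 0.05, beside 1174, 2784 and 2183 of all 16489 genes tested. Without RA-PBS animal 4, the count against RA-PBS for O2-IC100 was 7 of 59.

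The 12 other pathway genes of highest mean CPM were the insulin receptor and genes of the signalling arm inside the cell, and 0 of the 12 passed in any of the 3 comparisons by edgeR. The insulin receptor Insr, 128.6 ± 25.6 CPM in RA-PBS and 158 ± 17.7 CPM in O2-PBS retinas (SD, n = 4), had a log2 fold change of 0.29 (SE 0.13). The kinase genes Pik3ca (0.03, SE 0.09), Mtor (-0.01, SE 0.14) and Gsk3b (0.04, SE 0.09) and the regulatory subunit gene Pik3r1 (-0.07, SE 0.08) did not pass. The same held for the tyrosine phosphatase gene Ptpn11 (-0.08, SE 0.06), the ribosomal protein gene Rps6 (-0.14, SE 0.16), the transcription factor gene Foxo3 (0.05, SE 0.10), Rictor of mTOR complex 2 (0.03, SE 0.09) and Tsc2 (-0.06, SE 0.13), which restrains mTOR complex 1. Against O2-PBS, O2-IC100 retinas had log2 differences of -0.51 (SE 0.14, adjusted p = 0.115) for Insr and -0.44 (SE 0.16, adjusted p = 0.187) for Mtor, which did not pass in edgeR's test. Of the 9 adaptor genes, 0 passed in any of the 3 comparisons by edgeR. The adaptor gene Gab1 missed only the fold limit for O2-IC100 against O2-PBS (-0.52, SE 0.10, adjusted p = 0.0484, edgeR). In that comparison 2 of 59 pathway genes, Adam12 and Gab1, had an adjusted p under 0.1, as did 219 of 16688 genes tested.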

How the data were processed

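Poly(A)-selected RNA of 12 retinas was sequenced as 150 base pairs, paired-end. Per the study's methods, the authors mapped reads with Kallisto to GRCm39 release 104 transcripts and summed them per gene with tximport, and they deposited expected counts that were not rounded (42.2% of values were not whole). Tool versions are not given in the sources used here. Counts were rounded here. Symbols were matched for 35374 of 36131 gene identifiers, and lengths came from GENCODE M21. edgeR 4.0.16 (R 4.3.3) was run with TMM normalization, filterByExpr and a robust quasi-likelihood fit over 11 animals in 3 groups, with p-values adjusted over 16688 genes. The study used DESeq2. Standard errors are the log2 fold change divided by the root of F. CPM values are TMM-normalized, animal 10 on the scale of a fit over 12 animals. The fit was tested on simulated data. Depth limits low genes, and Poisson noise alone is large at the counts of Igfbp6. Titles name separate animals. All 10 members were named, with called pathway genes and the 12 others of highest mean CPM, of which some are not reported here. Members, lists and the choice to leave out animal 10 were made with earlier results of these data known. Alternatives were DESeq2 1.42.0, limma 3.58.1, other filters, scalings, covariates and thresholds, and leaving out animals.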

Additional observations from a re-analysis of the deposited data

Results flagged for a closer look

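A value was listed here when 1 animal of a group of 4 lay so far from the others that the gap to its nearest neighbour, as a share of the group's whole range, exceeded Dixon's critical value for 4 samples. Chance exceeds that limit in about 1 in 20 groups. Of the 30 groups checked (10 members in 3 groups), 6 exceeded it, and all 6 were values of O2-IC100 animal 10. Its Igf1 was 18.3 CPM, where the nearest animal of the group had 42.4 CPM. Its Igf2r was 130.2 CPM against 37.8, its Igfbp2 66.3 against 31.8 and its Igfbp5 592 against 86.9. Its Igfbp6 was 8.53 CPM against 1.07, and its Igfbp7 was 1023 CPM against 116. These CPM values rest on a TMM factor of 0.293 for animal 10, against 0.964 to 1.03 in the other libraries. A factor below 1 raises CPM over values scaled to the library total alone. In animal 9, Igf2r and Igfbp2 had 637 and 522 counts in a total of 16574299. In animal 10 they had 931 and 474 counts in a total of 24438082. Lens transcripts took 54.4% of the counts of that library, and its markers of pigment epithelium, fibroblasts and microglia summed to 3984, 793 and 532 CPM. Their part in these 6 values was not tested.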

How the results depend on the processing

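For members, calls fell from 4 to 0 (O2-PBS against RA-PBS) and from 1 to 0 (O2-IC100 against O2-PBS) with all 12 animals, and DESeq2 on all 12 called 1 in the first. In the second, 2 passed with only the 2 groups compared, DESeq2 or a crystallin covariate, 0 with a Y-linked covariate or a crystallin covariate on all 12, and 0 to 2 with 1 animal left out. Against RA-PBS, O2-IC100 went from 0 to 2 with the crystallin covariate on all 12. For pathway genes in O2-PBS against RA-PBS, the 6 calls became 0 with all 12 animals and 3 with DESeq2 on all 12. They became 10 or 11 with the crystallin covariate on 11 or 12. For O2-IC100 against O2-PBS, the 1 call became 2 without animals 1 and 10, with only the 2 groups, DESeq2 or the crystallin covariate. It became 0 with all 12 animals (edgeR, DESeq2 or crystallin covariate), limma, the Y-linked covariate and the length and GC correction, chosen after seeing the data, and ran from 0 to 3 with 1 animal left out. For O2-IC100 against RA-PBS, the 3 calls became 0 with all 12 animals or only the 2 groups, 1 without animals 1 and 10, with DESeq2 on all 12 or an adjusted p under 0.05, 6 with the Y-linked covariate, 5 and 12 with the crystallin covariate on 11 and 12, and 0 to 7 with 1 animal left out.

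Signs turned in 30 alternative log2 fold changes, and the other alternatives run kept the direction. With all 12 animals, O2-IC100 against O2-PBS became 0.067 for Igf2r (0.11 in DESeq2), 0.29 for Igfbp2 (0.32 in DESeq2), 0.86 for Igfbp5 and 1.18 for Igfbp7. Igfbp2 also ran from -0.186 to 0.003 with 1 animal left out (0.001 without animal 7, 0.003 without animal 12) and was 0.21 with the Y-linked covariate and 0.002 with the crystallin covariate on all 12. Igfbp4 was 0.009 after the length and GC correction, and Igfbp6 ran from -0.021 (without animal 11) to 0.503 with 1 animal left out. For O2-PBS against RA-PBS, Igfbp4 ran from -0.002 (without animal 2) to 0.184 with 1 animal left out and was -0.059 with the crystallin covariate. For O2-IC100 against RA-PBS with all 12 animals, Igf2r became 0.36 (0.39 in DESeq2, 0.36 with the crystallin covariate) and Igfbp6 0.60 (0.71 in DESeq2, 0.23 with that covariate). That covariate on all 12 gave -0.22 for Igf1 and -0.48 for Igfbp3, and on 11 it gave 0.026 for Igf1r. Igfbp4 ran from -0.139 to 0.06 with 1 animal left out (above 0 without animal 1, 3, 9 or 11) and was 0.06 without animals 1 and 10, 0.037 with library size alone and 0.015 after the length and GC correction. DESeq2 on all 12 animals gave no adjusted p for Igfbp5 and Igfbp7, so these have no call there. The causes were not tested. No paired analysis was possible because the groups share no animal numbers.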
